A study of Homo sapiens with 6 samples.

Results

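The genes that encode the hnRNP and SR splicing factors were followed in 22Rv1-ABHD5 cells. The parent line, 22Rv1, derives from a human prostate carcinoma that grows without androgen, and the transgene for ABHD5, a co-activator of lipolysis, is switched on by doxycycline (Dox). The set holds every gene in the count table whose symbol begins with HNRNP, or with SRSF and a digit, together with TRA2A, TRA2B, PTBP1, SF3B1, U2AF1 and U2AF2. After 4 pseudogene rows were dropped, it numbered 44 of the 27470 genes counted. RNA came from 3 libraries of cells grown without Dox and 3 of cells grown with Dox for 48 h, all made from the same lentivirally transduced and G418-selected line with a 3ʹ mRNA kit that primes at the poly(A) tail. The libraries are named replicates 1 to 3 in each condition, and the labels do not say whether they were separate cultures, so p-values measure the spread between these libraries, which may be technical. No library of parent cells with Dox was used here, so Dox and ABHD5 cannot be told apart.

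SR proteins carry one or more RNA-binding domains and a tail rich in arginine and serine, and they mostly promote the use of exons to which they bind. The hnRNP proteins coat nascent transcripts, and many of them repress exons or splice sites, so the balance of both families shapes alternative splicing. U2AF and SF3B1 recognize the 3ʹ splice site and the branch point. Many of these genes control their own transcripts through exons that lead to nonsense-mediated decay (NMD), and 3ʹ reads count transcripts without showing which exons they hold. SRSF1, hnRNP A1 and PTB are well known for high levels in proliferating and tumour cells.

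The libraries held 3394672 to 7271771 reads on genes. Reads on no annotated gene made up 32.5% to 34.6% of listed reads without Dox and 35.6% to 39.5% with Dox. ABHD5 was at 58.0 to 63.5 CPM (read counts scaled to a common library size after TMM normalization) without Dox and at 91.7 to 131 CPM with Dox (log2 fold change 0.91, standard error 0.15). CPM values are not scaled by transcript length, since each transcript is read at its 3ʹ end. Each of the 11 prostate luminal markers examined was detected, and their summed level was 1768 to 1875 CPM without Dox and 1168 to 1296 with Dox. The 8 markers of fibroblasts, blood, endothelium and hepatocytes summed to 3.62 to 7.75 CPM in each library, and CD3E, PECAM1 and CDH5 had no counts. One of the 8, the collagen gene COL1A1, rose (log2 fold change 1.22, adjusted p = 0.0313) at 1.55 to 7.62 CPM. Among 13 proliferation genes, 12 were tested and 12 fell, and their summed level was 4584 to 5069 CPM without Dox and 2319.8 to 2671 with Dox. The part of slower proliferation, or of the larger share of reads on no gene, in the changes given here was not tested. In bulk RNA, fewer dividing cells and less RNA per cell cannot be told apart.

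The splicing factor genes as a set were lower with Dox. Of the 44 genes, 38 passed the filter on low counts, and 14 of these fell at an adjusted p under 0.05 (quasi-likelihood test of edgeR, Benjamini-Hochberg adjustment over 12233 genes), while 0 rose. Among all genes tested, 13.7% fell and 11.9% rose, against 36.8% of the splicing factor genes that fell. At an unadjusted p under 0.05, 21 were lower and 1 was higher, the latter being SRSF11, where 18.8% of all genes tested were lower and 18.0% higher. DESeq2 and limma-voom also placed 0 of them higher and 14 and 13 lower. The median log2 fold change of the 38 genes was -0.34, and that of all genes tested was 0.016. The falls ranged from 1.27-fold, for HNRNPUL1, to 1.84-fold, for HNRNPL. In 18 of the 38, each library with Dox was below each library without Dox, which was true of 20.5% of all genes tested.

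**Figure D1:**
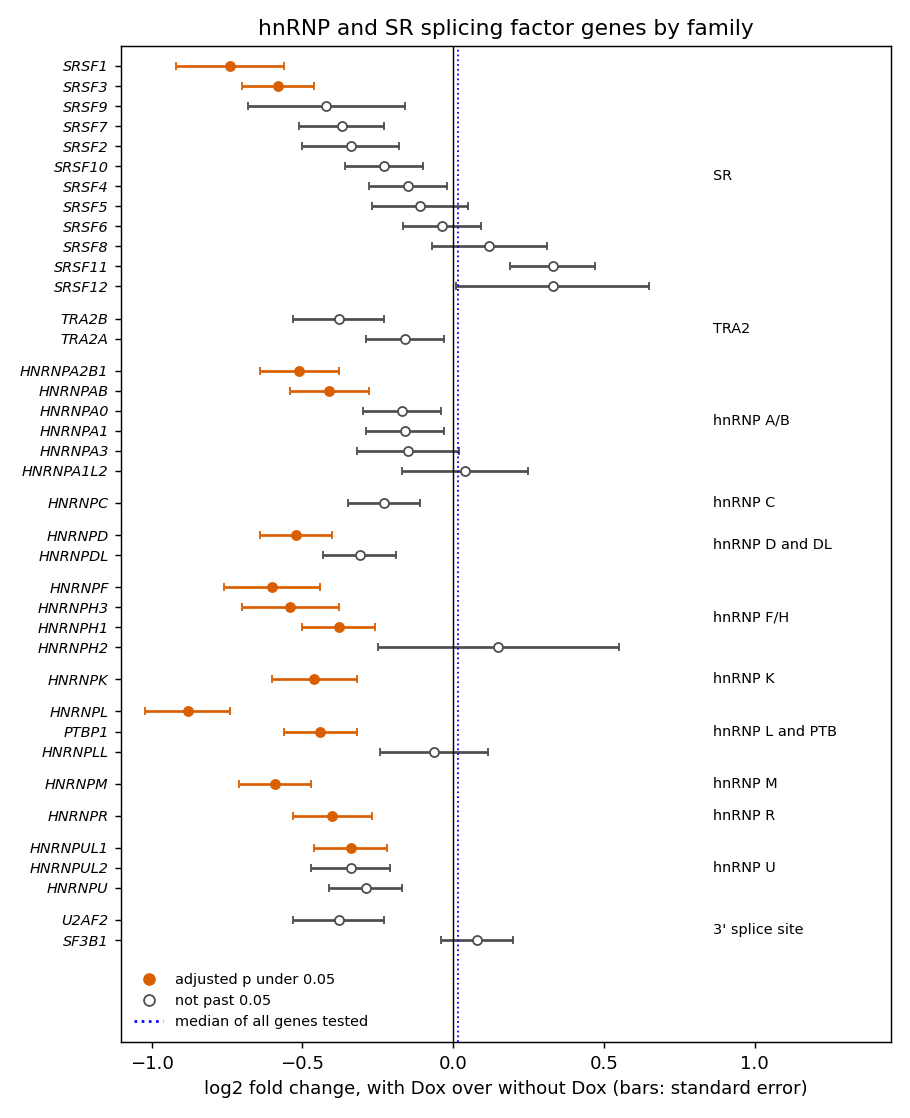
Log2 fold change (with Dox over without Dox, horizontal axis) of the 38 splicing factor genes tested, grouped by family, with bars for the standard error; orange points are past an adjusted p of 0.05 and the dotted line is the median of all genes tested, 0.016. The 14 orange points lie between -0.88 (HNRNPL) and -0.34 (HNRNPUL1), and no point to the right of 0 is orange.

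Summed over the 44 genes, reads were 11684, 10969.5 and 11743 CPM in replicates 1, 2 and 3 without Dox and 8731, 9009.8 and 8930.3 CPM with Dox. The groups did not overlap, and the mean fell by 22.5%. The sum over all genes tested fell by 8.09% on the same scale. That value restates the TMM factors (0.953 to 0.963 without Dox, 1.04 to 1.05 with Dox) and is not a measured fall in RNA. The changes of the sums given here include this scaling. The hnRNP genes with PTBP1 summed to 8323 ± 263 CPM (SD, n = 3) in the absence of Dox and to 6172 ± 105 CPM (SD, n = 3) in its presence. The SR genes with both TRA2 genes summed to 2636 ± 232 CPM (SD, n = 3) in the absence of Dox and to 2260.2 ± 174 CPM (SD, n = 3) in its presence. Of 22 hnRNP genes tested, 12 fell, and of 14 SR and TRA2 genes, 2 fell, with medians of -0.36 and -0.19 on the log2 scale. These are 54.5% of the hnRNP genes and 14.3% of the SR and TRA2 genes, so the latter share is near the 13.7% of all genes. Whether the families differed was not tested.

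The 6 genes that were not tested had at most 2 counts in a library. They were HNRNPCL1, HNRNPCL2, HNRNPCL3 and HNRNPCL4, which are intronless copies of HNRNPC, the readthrough gene HNRNPUL2-BSCL2, and U2AF1. U2AF1, the small subunit of the factor that binds the 3ʹ splice site, had 0 counts in each of the 6 libraries. At 3 counts, the limit that a count of 0 allows, this is up to 0.394 to 0.93 CPM, and this limit covers counting error only. U2AF1L5, a copy of U2AF1 elsewhere on chromosome 21 in hg38, also had 0 counts in each library. Over the last 500 bases of the U2AF1 transcript, 52.6% of 100-base windows had an exact second match elsewhere in hg38. How reads with several matches were counted is not stated, so the 0 and its limit do not give the level of U2AF1. HNRNPH2, on the X chromosome, was tested but had only 9 to 21 counts per library.

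Promoter sequences are shown for 6 of the genes, chosen after their values were seen, to set the strongest called fall (HNRNPL) beside its paralog (HNRNPLL), a called hnRNP and SR gene (HNRNPD and SRSF3) and genes that did not fall (SRSF11 and SF3B1). The sequences are from RefSeq on GRCh38.p14, and each run is upstream of the RefSeq start and outside annotated exons. The run of HNRNPL ends 1 base before that start, those of HNRNPD, SRSF3 and SRSF11 end 9, 10 and 11 bases before it, and those of SF3B1 and HNRNPLL end 52 and 109 bases before it. Those of HNRNPLL, HNRNPD and SRSF11 lie inside the longer gene that GENCODE annotates. Capitals mark, on either strand, the NF-Y box CCAAT, the E-box CACGTG, the GC box GGGCGG and TATAAA, the letters of a TATA box. They also mark a pair of E2F-like motifs spelled TTTGGCGC for the first and TTTCCCGC for the other. Distance to the start was not part of the search. The ETS motif CCGGAAGT was also searched and was in 4 of the 40 promoters found (10%), against 9.38% of tested genes.
HNRNPL, chr19:38852348-38852467, minus strand: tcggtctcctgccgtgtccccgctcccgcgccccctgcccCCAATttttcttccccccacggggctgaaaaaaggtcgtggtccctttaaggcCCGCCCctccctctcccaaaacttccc
HNRNPLL, chr2:38603037-38603156, minus strand: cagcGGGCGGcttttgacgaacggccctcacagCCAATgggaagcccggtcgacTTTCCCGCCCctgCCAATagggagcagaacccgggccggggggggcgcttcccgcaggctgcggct
HNRNPD, chr4:82374000-82374118, minus strand: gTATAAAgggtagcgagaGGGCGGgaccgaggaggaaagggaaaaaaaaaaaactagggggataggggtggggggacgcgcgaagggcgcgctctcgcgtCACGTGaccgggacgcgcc
SRSF3, chr6:36594233-36594352, plus strand: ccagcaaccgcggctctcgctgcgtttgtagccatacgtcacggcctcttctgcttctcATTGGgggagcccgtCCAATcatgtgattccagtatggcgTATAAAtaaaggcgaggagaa
SRSF11, chr1:70221250-70221369, plus strand: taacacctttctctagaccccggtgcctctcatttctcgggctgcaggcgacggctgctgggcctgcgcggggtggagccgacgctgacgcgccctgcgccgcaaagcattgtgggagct
SF3B1, chr2:197435080-197435199, minus strand: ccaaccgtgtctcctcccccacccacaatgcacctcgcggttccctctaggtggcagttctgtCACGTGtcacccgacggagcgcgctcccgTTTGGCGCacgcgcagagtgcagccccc

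In HNRNPLL, TTTCCCGC overlaps a reversed GGGCGG. Promoters of 40 of the 44 genes were found, and motifs were counted on both strands over 300 bases, 250 before the start and 50 after it. The 40 include HNRNPCL1, HNRNPCL2, HNRNPCL4, U2AF1 and HNRNPUL2-BSCL2, which were not tested. The windows of HNRNPUL2 and HNRNPUL2-BSCL2 overlap, so motifs they share are counted for each gene. CCAAT, the box bound by NF-Y, was in 19 of the 40 (47.5%), against 37.5% of the 9332 promoters of tested genes. CACGTG, the E-box bound by MYC and its relatives, was in 8 (20%), against 10.5%. GGGCGG, the GC box, was in 26 (65%), against 71.2%. TATAAA was in 5 (12.5%), against 5.13% of tested genes and 12% of all 27305 promoters. It was in 3 of the 14 genes that fell, HNRNPD, HNRNPAB and SRSF3, and in SRSF11 and HNRNPC, which were not called. In HNRNPD it stands at the upstream end of the printed run, which begins 127 bases before the start. The printed run of SRSF11 holds none of these motifs, but its 300-base window holds GGGCGG and TATAAA outside that run. The first E2F-like motif was in 1 of the 40 promoters (2.5%), against 1.16%, and the other in 3 (7.5%), against 2.86%. Neither was in the promoters of the 14 genes that fell, a count of 0 that such low shares make likely. Among the same 14, CCAAT was in 8, CACGTG in 4, GGGCGG in 8 and the ETS motif in 1. Over all 27305 promoters, the shares were 35.7% for CCAAT, 7.43% for CACGTG and 44.6% for GGGCGG. These counts describe letters in a window and were not tested.

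Among SR genes, SRSF1 and SRSF3 fell. SRSF1, the founding SR protein (SF2/ASF), lies on chromosome 17 of hg38 from 58000919 to 58007346. It was at 317, 227 and 422 CPM in replicates 1, 2 and 3 without Dox and at 200.1, 168 and 211 CPM with Dox. The groups did not overlap, although the replicates without Dox spread widely. Its log2 fold change, -0.74 with a standard error of 0.18, passed the threshold (adjusted p = 0.00484), and it was between -0.94 and -0.49 with each library left out in turn. SRSF3, the smallest SR protein, lies on chromosome 6 from 36594353 to 36605600. It was at 405, 392 and 435 CPM without Dox and at 281, 264 and 281 CPM with Dox. Here the replicates were close together and the gap between groups was wide (log2 fold change -0.58, standard error 0.12, adjusted p = 0.00161).

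SRSF11, which encodes an SR-related protein (p54), had the highest mean level of the SR genes over all 6 libraries (without Dox, SRSF3 was higher) and gave a positive value. It was at 347, 389 and 415 CPM without Dox and at 406, 552 and 489.8 CPM with Dox. Replicate 1 with Dox was below the highest library without Dox, and the log2 fold change of 0.33 (standard error 0.14) did not pass the threshold (adjusted p = 0.0859, edgeR, 0.0203 to 0.331 over 15 alternatives). SRSF7, the closest relative of SRSF3, had -0.37 (standard error 0.14, adjusted p = 0.0621), and SRSF2, which also acts in transcription elongation, had -0.34 (adjusted p = 0.124). SRSF10 had -0.23, SRSF4 -0.15, SRSF5 -0.11 and SRSF6 -0.037, and none of these 4 passed. The values of SRSF5 and SRSF6 were above 0 when libraries were scaled by their totals alone (0.011 and 0.085). SRSF9 had -0.42 with a standard error of 0.26, and replicate 3 with Dox was at 12.7 CPM where the other libraries with Dox were at 29.4 and 32.8. Without that library the value was -0.056 (adjusted p = 0.871). The end of its transcript overlaps GATC on the opposite strand, which had 179 to 395 counts. The use of strand in counting is not stated, so reads of such pairs cannot be told apart. The low SRSF12, with 14 to 47 counts, had 0.33 (standard error 0.32), and SRSF8 had 0.12 (standard error 0.19).

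TRA2A and TRA2B, SR-like activators of exons rich in GAA repeats, did not pass the threshold. TRA2A was at 180.2, 176 and 187 CPM without Dox and 137, 178 and 173 CPM with Dox. Only replicate 1 with Dox stood apart, and the log2 fold change was -0.16 (standard error 0.13). TRA2B had -0.38 (standard error 0.15, adjusted p = 0.078).

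The most abundant hnRNP genes by 3ʹ reads, HNRNPA2B1 and HNRNPM, both fell. HNRNPA2B1, on chromosome 7 from 26171151 to 26201529, encodes an hnRNP that also sorts RNA and microRNA precursors. It was at 1214, 1039 and 1222 CPM without Dox and at 761, 869 and 809 CPM with Dox. The groups did not overlap (log2 fold change -0.51, standard error 0.13, adjusted p = 0.00644). HNRNPAB was at 593, 577 and 476 CPM without Dox and at 422, 416 and 398 CPM with Dox, a log2 fold change of -0.41 (adjusted p = 0.0231). The end of its transcript overlaps PHYKPL on the opposite strand, which had 23 to 87 counts and itself did not pass (log2 fold change 0.43, adjusted p = 0.36). HNRNPA1, the best known repressor of this group, was at 218 to 238 CPM without Dox and at 175 to 243 CPM with Dox, and its log2 fold change of -0.16 (standard error 0.13) did not pass. HNRNPA1 has many processed copies in the genome. In its main transcript 0% of 100-base windows in the last 500 bases had another exact match, but among its 11 coding transcripts the share reached 70.1%. The highest share over transcripts was 51.1% for HNRNPA1L2, 49.9% for HNRNPC and 48.6% for HNRNPA3. In the main transcript it was 51.1%, 0% and 4.74%. These shares do not measure the error in the counts of these 4 genes, which is not known. The pseudogene row HNRNPA1P10 held 7 to 47 counts. HNRNPA0, HNRNPA3 and HNRNPA1L2 had log2 fold changes of -0.17, -0.15 and 0.039 and did not pass.

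HNRNPM, on chromosome 19 from 8444767 to 8489114, encodes a factor linked to splicing in the epithelial to mesenchymal switch. It was at 1077, 1075 and 1018 CPM without Dox and at 709.8, 729.7 and 672 CPM with Dox. The spread within each group was small beside the gap (log2 fold change -0.59, standard error 0.12, adjusted p = 0.00155). HNRNPK, a KH-domain protein that binds C-rich RNA and DNA, was at 661, 674 and 746 CPM without Dox and at 568, 529.6 and 417 CPM with Dox. These did not overlap either (log2 fold change -0.46, standard error 0.14, adjusted p = 0.0193), and the value was -0.34 (adjusted p = 0.0707) without replicate 3 with Dox. HNRNPR, an RNA-binding protein close to SYNCRIP, was at 476, 510.1 and 499 CPM without Dox and at 383, 427 and 319.8 CPM with Dox, a log2 fold change of -0.40 (adjusted p = 0.0335). This call was lost under 7 of 15 alternatives, including upper-quartile normalization (-0.34, adjusted p = 0.0641) and library totals alone (-0.27, adjusted p = 0.122).

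HNRNPL showed the largest fall of the set. The gene, on chromosome 19 from 38836370 to 38852347, encodes a protein that binds CA repeats, and its promoter is the first of those printed above. It was at 181, 152 and 207 CPM without Dox and at 103, 90.2 and 102 CPM with Dox. The lowest library without Dox was well above the highest with Dox (log2 fold change -0.88, standard error 0.14, adjusted p = 1.251e-04). The end of its transcript overlaps ENSG00000268083 on the same strand. Over 15 alternatives it was between -0.99 and -0.76 and past the threshold each time. Its paralog HNRNPLL, known for splicing of CD45 in T cells, was at 21.4 to 25 CPM without Dox and 20 to 25.1 with Dox, with a log2 fold change of -0.063 (standard error 0.18) that was 0.059 with library totals alone. PTBP1, the polypyrimidine tract binding protein, was at 277, 287 and 257 CPM without Dox and at 197, 186 and 220.1 CPM with Dox. The groups did not overlap (log2 fold change -0.44, standard error 0.12, adjusted p = 0.0133).

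In the F/H group, whose proteins bind runs of G, 3 of 4 genes fell, as did 13.7% of all genes tested. The calls of HNRNPH1 and HNRNPH3 were lost under 4 and 5 of 15 alternatives. HNRNPF, on chromosome 10 from 43385617 to 43409186, was at 563, 373 and 523 CPM without Dox and at 352, 260.5 and 349.8 CPM with Dox. Replicate 2 was the lowest in each condition, and the groups still did not overlap (log2 fold change -0.60, standard error 0.16, adjusted p = 0.0101). HNRNPH1 was at 380.3, 355 and 368 CPM without Dox and at 273, 279 and 293 CPM with Dox, a log2 fold change of -0.38 (adjusted p = 0.0237). HNRNPH3 was at 202, 151 and 248 CPM without Dox and at 139, 116 and 158 CPM with Dox. It was the only one of the 14 whose groups overlapped (log2 fold change -0.54, standard error 0.16, adjusted p = 0.0226).

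**Figure D2:**
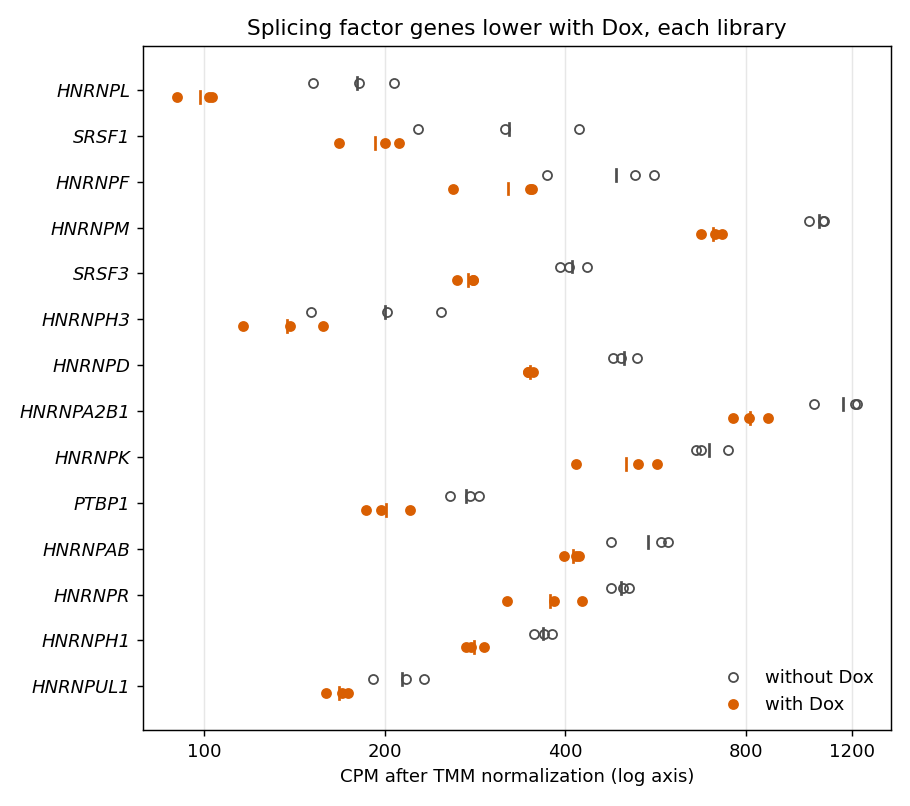
CPM after TMM normalization (horizontal log axis) of the 14 splicing factor genes that fell, one point per library without Dox (open) and with Dox (orange), with short lines at the group means. The points of both groups are apart for 13 genes and overlap for HNRNPH3, where the lowest library without Dox is at 151 and the highest with Dox at 158.

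HNRNPD, also called AUF1, binds AU-rich elements and promotes mRNA decay. It was at 495, 526 and 479.9 CPM without Dox and at 353, 347 and 346 CPM with Dox. The libraries with Dox were nearly equal and all below those without Dox (log2 fold change -0.52, standard error 0.12, adjusted p = 0.00337). Its neighbour and paralog HNRNPDL, also on chromosome 4, had -0.31 (standard error 0.12, adjusted p = 0.079). HNRNPC, which binds runs of U, was at 263, 291 and 267 CPM without Dox and at 236, 255 and 207 CPM with Dox. These groups did not overlap, but the log2 fold change of -0.23 (standard error 0.12) did not pass (adjusted p = 0.186).

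HNRNPU, a scaffold attachment factor that also binds chromatin, was at 875, 793 and 903 CPM without Dox and at 739.8, 719 and 649 CPM with Dox. The groups were apart, and the log2 fold change of -0.29 (standard error 0.12) did not pass the threshold (adjusted p = 0.0985). HNRNPUL1 was at 217, 233 and 191 CPM without Dox and at 170.1, 159.7 and 174 CPM with Dox. The end of its transcript overlaps ENSG00000286177 on the opposite strand. Its call was marginal (log2 fold change -0.34, adjusted p = 0.0491) and was lost under 12 of 15 alternatives. HNRNPUL2 had the same log2 fold change, -0.34, without a call (adjusted p = 0.0609).

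SF3B1, the subunit of the U2 snRNP that holds the branch point, was at 243, 238 and 244 CPM without Dox and at 246, 274 and 246 CPM with Dox. Each library with Dox was slightly higher, as for 19% of all genes tested (log2 fold change 0.079, standard error 0.12, adjusted p = 0.672). Under the 15 alternatives it was between 0.024 and 0.20. U2AF2, the large U2AF subunit that binds the polypyrimidine tract, was at 295, 296 and 202 CPM without Dox and at 196, 185 and 226 CPM with Dox. Replicate 3 without Dox lay among the libraries with Dox (log2 fold change -0.38, standard error 0.15, adjusted p = 0.0715). The value was -0.55 (adjusted p = 0.00933) when replicate 3 without Dox was left out and -0.47 (adjusted p = 0.0352) when replicate 3 with Dox was left out. The end of the transcript overlaps ENSG00000267523 on the opposite strand.

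Ratios within a library do not depend on the scaling between libraries. Between 11 pairs of these genes, picked after their values were seen, 3 ratios did not overlap between the conditions. The choice of pairs can by itself produce this, and the share over pairs of all genes was not computed. Of single genes tested, 20.5% were lower and 19% higher in each library with Dox than in each without. The HNRNPL to HNRNPLL ratio was 7.63, 7.1 and 8.3 without Dox and 4.73, 4.5 and 4.05 with Dox. HNRNPA2B1 to HNRNPA1 was 5.09, 4.5 and 5.6 without Dox and 4.34, 4.4 and 3.33 with Dox. These are apart only by 4.5 against 4.4, and the error in the counts of HNRNPA1 is not known. SRSF1 to SRSF11 was 0.913, 0.584 and 1.02 without Dox and 0.493, 0.305 and 0.431 with Dox. In contrast, HNRNPUL1 to HNRNPUL2 was 1.18 to 1.28 without Dox and 1.21 to 1.25 with Dox. With 3 libraries against 3, an exact permutation test cannot go below p = 0.1 (two-sided), so the ratios are given as a description.

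**Figure D3:**
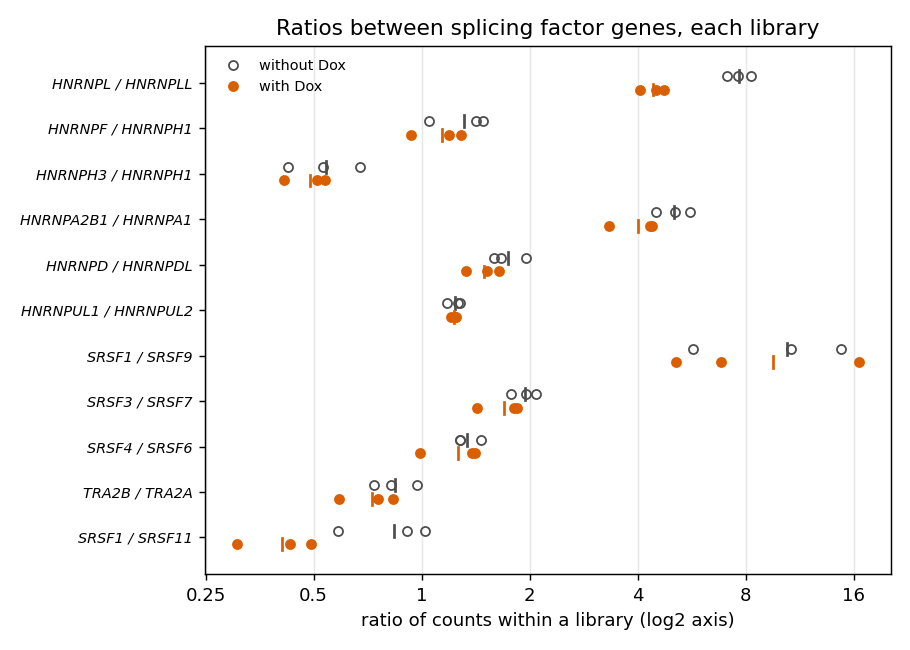
Ratio of the counts of gene pairs within each library (horizontal log2 axis), without Dox (open) and with Dox (orange), with short lines at the group means. HNRNPL to HNRNPLL lies at 7.1 to 8.3 without Dox and 4.05 to 4.73 with Dox, and 8 of the 11 pairs overlap.

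Other genes of the splicing pathway were read from 4 lists of 141 genes, of which 137 were tested. Together 29 fell and 8 rose, that is 21.2% lower against 13.7% of all genes and 5.84% higher against 11.9%. Of 67 core spliceosome genes, 18 fell (26.9%) and 1 rose (1.49%), with a median log2 fold change of -0.16. The clearest falls were those of LSM2 and LSM4, members of the ring that holds U6 snRNA, with log2 fold changes of -0.95 (standard error 0.13, adjusted p = 4.945e-05) and -0.91 (standard error 0.14, adjusted p = 1.076e-04). SNRPC, a protein of the U1 snRNP, had -0.65. CDC40, a second-step factor, rose from 59.3, 69.8 and 71.7 CPM to 140.3, 139 and 111 CPM (log2 fold change 0.95, standard error 0.14, adjusted p = 6.978e-05).

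Of 12 kinases and importers of SR and hnRNP proteins, 2 fell (16.7%) and 1 rose (8.33%), near the shares of all genes. TNPO3, which imports SR proteins into the nucleus, had -0.40 (adjusted p = 0.0194), and TNPO1, which imports hnRNP A1, had -0.43 (adjusted p = 0.026). SRPK3, an SR kinase, rose from 0.784, 1.86 and 1.40 CPM to 3.70, 6.40 and 3.81 CPM, a low level throughout. Of 48 other splicing regulators, 9 fell (18.8%) and 5 rose (10.4%), shares near those of all genes (13.7% and 11.9%). EWSR1, an RNA-binding protein that links transcription to splicing, was at 207, 174 and 216 CPM without Dox and at 142, 123 and 142 CPM with Dox (log2 fold change -0.55, adjusted p = 0.00405). TAF15 rose from 164, 187 and 171 CPM to 237, 269 and 263 CPM (log2 fold change 0.56, standard error 0.12, adjusted p = 0.00244). RBMX, also known as hnRNP G, had -0.61 (adjusted p = 0.00355). NOVA1, a neuronal splicing factor, rose by 0.72 and NSRP1, a speckle protein, by 0.47 on the log2 scale. Of 10 NMD factors, 0 fell and 1 rose (10%), and the share that rose is near the 11.9% of all genes. The gene that rose was SMG6, the endonuclease of this pathway, by 0.47 on the log2 scale (adjusted p = 0.0219).

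**Figure D4:**
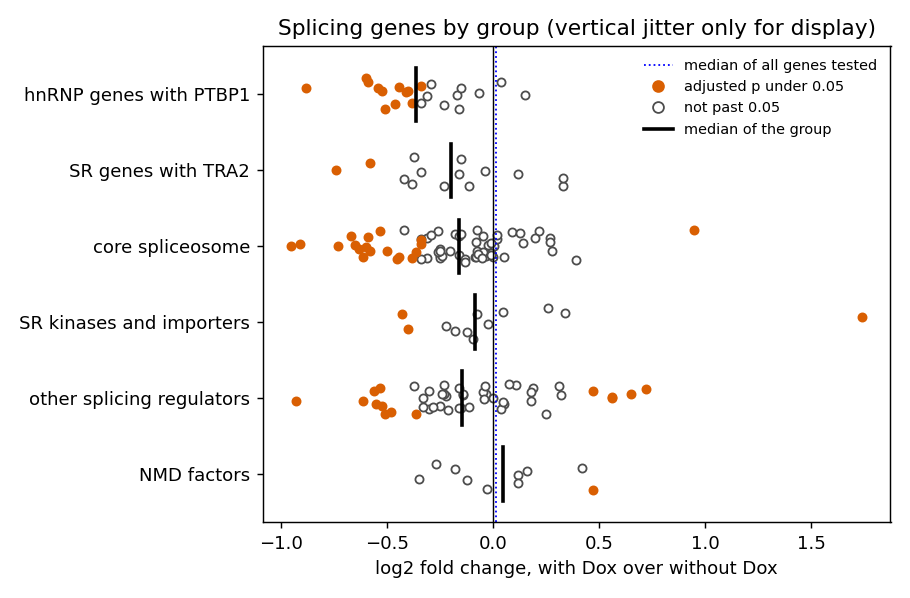
Log2 fold change (with Dox over without Dox, horizontal axis) of the genes tested in each group of splicing genes, with orange for an adjusted p under 0.05, a thick line for the group median and vertical jitter for display. Group medians lie from -0.36 for hnRNP genes with PTBP1 to 0.044 for NMD factors, and CDC40 (0.95) and SRPK3 (1.74) stand at the right.

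Of the 14 falls, 6 kept their call in each of 15 alternatives: HNRNPL, SRSF1, SRSF3, HNRNPM, HNRNPD and HNRNPA2B1. Without replicate 1 without Dox, HNRNPF, HNRNPAB, HNRNPH1, HNRNPH3, HNRNPR and HNRNPUL1 lost theirs. Without replicate 1 with Dox, PTBP1, HNRNPAB, HNRNPH1, HNRNPH3, HNRNPR and HNRNPUL1 did, and each of these fits left 8 genes lower. Of the other libraries, leaving out replicate 2 without Dox lost the calls of HNRNPAB, HNRNPR and HNRNPUL1. Leaving out replicate 3 without Dox lost those of HNRNPH1, HNRNPH3, HNRNPK and HNRNPR. With Dox, leaving out replicate 2 lost those of HNRNPH3 and HNRNPUL1, and leaving out replicate 3 lost those of HNRNPK, HNRNPR and HNRNPUL1. A lost call need not mean a smaller fall, since fits without a library called 2181 to 3112 of all genes, against 3125. Without replicate 3 without Dox, HNRNPH1 was at -0.39, against -0.38 with all libraries, whereas HNRNPH3 went from -0.54 to -0.36. When libraries were scaled by their totals alone, the median over all genes rose from 0.016 to 0.14 on the log2 scale, the share of calls that were higher from 46.4% to 65.7%, and 7 splicing factor genes were called lower. The median of the splicing factor genes minus that of all genes was -0.35 under both scalings, a difference that a change of scaling leaves nearly fixed by construction.

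**Figure D5:**
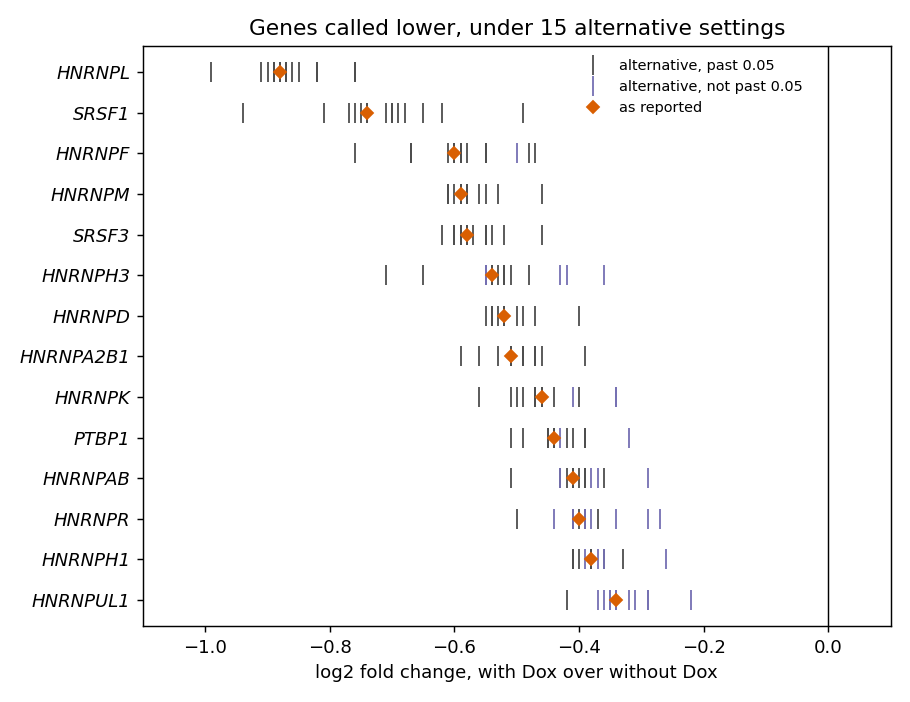
Log2 fold change (with Dox over without Dox, horizontal axis) of the 14 genes that fell, as reported (orange) and under 15 alternative settings (bars, violet where not past an adjusted p of 0.05). No bar reaches 0, and HNRNPUL1 has 12 violet bars.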

How the data were processed

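Total RNA was isolated with TRIzol, and single-end reads of 3ʹ libraries were demultiplexed with CASAVA 1.8.2, checked with FastQC and mapped to hg38 with STAR. The submitters' processing notes also name HTSeq and edgeR. Neither the gene annotation nor the strand setting is given in the sources used here, and the labels and the paper name different versions of the kit (FWD and REV). The authors deposited raw read counts per gene symbol for all libraries, and for each library normalized values (a signal scaled to similar totals, by a method that is not given). The count table holds 5 rows for unassigned reads, which entered neither the library sizes nor the tests. These held 32.5% to 39.5% of listed reads as reads on no gene and 3.05% to 3.37% as ambiguous reads.

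Counts were tested with edgeR 4.0.16 in R 4.3.3, using TMM normalization, the filterByExpr filter and the quasi-likelihood test, with a threshold of 0.05 on p after Benjamini-Hochberg adjustment over all genes tested. DESeq2 1.42.0 and limma 3.58.1 served alternatives, and the deposited normalized values were tested as log2(value + 1) with limma, without 27 rows whose names differed. The tests were checked on simulated counts. Counts of replicate pairs differed beyond sampling noise (chi-square 4.24 to 12.6 per degree of freedom), and none was merged. Coordinates and last exons are those of GENCODE 44. Windows of 100 bases in the last 500 bases of transcripts were matched exactly to the main chromosomes of hg38. A gene at 0 may have up to 3 counts, and reads carry no molecular identifiers, so this covers counting error only.

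The genes and lists were chosen with earlier results of these data known. Values per library are given for each splicing factor gene past the threshold and for the gene with the highest mean CPM in each family. In the 4 related lists, up to 3 called genes per direction are named, those of smallest adjusted p, apart from a result that is not reported here. Other genes were named after their values were seen.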

Additional observations from a re-analysis of the deposited data

How the results depend on the processing

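The direction of each of the 14 falls was the same under each of 15 alternatives, and 6 kept their call in all of them. The number of splicing factor genes called lower was 14, 12 to 17 under 8 of the alternatives that kept all libraries, and 7 with library totals alone. Leaving out one library at a time gave 8 to 15, and 8 came from leaving out replicate 1 of either condition. The number called higher was 0, and 1 (SRSF11) with upper-quartile normalization, with library totals alone and with the replicate block. Related splicing genes called lower numbered 29, 17 with library totals alone and 18 to 26 when one library was left out (18 for replicate 1 and 19 for replicate 2 of the cells without Dox). Those called higher numbered 8, 13 with library totals alone and 5 to 9 when one library was left out (5 for replicate 1 of the cells without Dox). The cause was not tested. All genes called numbered 3125, and 2181 to 3537 over the alternatives.

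Of 24 splicing factor genes without a call, 7 gained one under some alternative and 6 changed sign. HNRNPLL (0.059), SRSF5 (0.011) and SRSF6 (0.085) were above 0 with library totals alone, and SRSF6 (0.018) with upper-quartile normalization. With one library left out, the log2 fold change ranged from -0.1 to 0.2 for HNRNPA1L2, -0.03 to 0.32 for HNRNPH2, -0.17 to 0.001 for HNRNPLL, -0.25 to 0.065 for SRSF5, -0.13 to 0.035 for SRSF6 and -0.12 to 0.32 for SRSF8. HNRNPH2 did not pass the filter of 10 counts in every library, so it has no value there.

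Whether same-numbered libraries were paired is not stated in the labels. Their deviations correlated across genes with r of -0.0096, 0.23 and 0.086, which does not settle it, and the main fit ignored replicate numbers. With the replicate block, 17 splicing factor genes were lower, including the same 14, and ABHD5 stayed past the threshold. All genes called numbered 3537 with the block and 3125 without it. Precision is limited by 3 libraries per condition and, for HNRNPH2 and SRSF12, by counts.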
